A study of Mus musculus with 14 samples.

Results

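Microglia are the resident macrophages of the brain, and the data described here are the expression of 10 genes by which they are known in bulk hippocampal tissue of mice with and without the lysophosphatidic acid receptor LPAR2. The genes were the rows of the deposited count table named Cx3cr1, P2ry12, Tmem119, Csf1r, Aif1, C1qa, C1qb, C1qc, Trem2 and Tyrobp. They were taken by name, with earlier results of these data known, and all 10 of the 10 were found among the 24421 genes of the table. Naive male mice of the strain 129.C57Bl6 were used, 7 labelled LPAR2-/- and 7 wild type (WT), with 1 RNA library per mouse. On the labels the age is 10 to 12 weeks and the tissue the hippocampus. The description of the series speaks of middle-aged to aged mice, and the paper gives no separate age for the sequenced mice. The paper names hippocampi in its RNA methods but the dentate gyrus in its results, so that age and region are not settled. The LPAR2-/- mice lack the latter part of the second Lpar2 exon in every cell and were bred as a colony of homozygotes beside a separate control colony of mixed C57BL/6 and 129/SvJ background, so that effects of the deletion and of the colony cannot be told apart. None of the mice carried another transgene or received a treatment, according to the labels.

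Lpar2 itself went against the labels. In CPM (counts per 1000000 counts on genes), the mice labelled LPAR2-/- had 9.55 ± 1.41 and WT mice 2.36 ± 0.676 (SD, n = 7), and the fitted difference was 2.01 on the log2 scale (edgeR quasi-likelihood test with Benjamini-Hochberg adjustment). The count is a sum over the exons of the gene and does not show the deleted stretch on its own. The libraries are therefore named by their labels, and every direction given below is that of the labelled groups. The counts of a mouse summed to between 15434620 and 23258949.

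Microglia enter the brain before birth and maintain themselves there under the growth factor receptor CSF1R. Their fine processes survey the tissue, sense nucleotides released by active or damaged cells through P2RY12, and receive the neuronal chemokine fractalkine through CX3CR1. They are also the main source of C1q in the brain, the recognition molecule that starts the classical complement pathway and takes part in the removal of synapses. C1q is built from the products of C1qa, C1qb and C1qc. TREM2 is a lipid-sensing receptor that signals through the adaptor TYROBP and is known for its part in the response of microglia to plaques and to ageing. The comparison asks whether the expression of these genes differed between the genotypes. In RNA of whole tissue, fewer microglia and less RNA per microglial cell cannot be told apart.

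Other markers of these cells were present. All of the 30 further genes typical of microglia passed the filter on low counts. Among them Sall1, the transcription factor gene that sets microglia apart from other macrophages, was at 23.9 ± 2.73 CPM in the mice labelled LPAR2-/- and 22.4 ± 1.74 CPM in WT mice. Most markers of blood-borne cells had low counts. Of 15 genes of monocytes, neutrophils and lymphocytes, 14 were too low to be tested. The exception, Vcan, ran from 12.8 to 18.5 CPM in the mice labelled LPAR2-/- and from 13.8 to 19.4 CPM in WT mice and made up most of the sum of the 15, which was 14.9 to 21.3 CPM over the 14 mice. It was not called (p above 0.05 in edgeR). Ccr2, the chemokine receptor of inflammatory monocytes, had at most 0.991 CPM in the mice labelled LPAR2-/- and 1.37 CPM in WT mice, the latter in WT mouse 1 (29 counts) beside at most 0.350 CPM in the other 6. The neutrophil gene S100a8 had at most 0.259 and 0.756 CPM. A count of 3 reads corresponded to 0.129 to 0.194 CPM in these libraries. Of 5 genes of red blood cells, 1 was tested and not called (p above 0.05 in edgeR), and the haemoglobin genes Hba-a1, Hba-a2, Hbb-bs and Hbb-bt had a count of 0 in all 14 mice, which is uncertain because these genes have near-identical copies.

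C1qa, C1qb and C1qc lie side by side on the reverse strand of chromosome 4 (mm10), C1qb at 136880145 to 136886177, C1qc at 136889802 to 136892914 and C1qa at 136895916 to 136898844. Windows of 250 bases before the RefSeq transcription start were available for 6 of the 10 genes (Cx3cr1, P2ry12, Aif1, C1qb, C1qc and Trem2). Because C1qb and C1qc varied together across the mice (r = 0.85), their windows are printed from RefSeq (GRCm38.p6, the build of the counts), 5′ to 3′ on the reverse strand, which both genes use. Capitals mark GAGGAA or its reverse complement TTCCTC, the core of the PU box recognised by PU.1, the product of Spi1 and a master regulator of myeloid cells. The C1qb window is chr4:136886201-136886450 and the C1qc window is chr4:136892915-136893164.
C1qb: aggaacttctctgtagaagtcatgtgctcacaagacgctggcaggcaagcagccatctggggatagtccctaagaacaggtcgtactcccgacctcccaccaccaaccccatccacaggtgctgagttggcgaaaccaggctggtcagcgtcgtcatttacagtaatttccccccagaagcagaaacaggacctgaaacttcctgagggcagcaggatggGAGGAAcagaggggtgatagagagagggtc
C1qc: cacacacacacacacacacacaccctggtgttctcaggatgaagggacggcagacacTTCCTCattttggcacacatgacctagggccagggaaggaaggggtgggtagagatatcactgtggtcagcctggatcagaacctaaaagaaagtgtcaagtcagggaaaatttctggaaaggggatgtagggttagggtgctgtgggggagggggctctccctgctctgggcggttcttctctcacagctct

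The motif began 30 bases before the start site in C1qb and 193 bases before it in C1qc. It was also found once each before Aif1 and Trem2, where it is shown with the bases around it in the direction of the gene.
Aif1: ataggcacccagTTCCTCc
Trem2: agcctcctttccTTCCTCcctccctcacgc
The match began 7 bases before the Aif1 start and 40 bases before the Trem2 start. In all, 4 of the 6 windows held the motif on either strand, beside 23.3% of the 32851 windows of the same length in the RefSeq table. The match describes these letters only. Spi1 was at 2.45 ± 0.470 CPM in the mice labelled LPAR2-/- and 2.44 ± 0.843 CPM in WT mice, with a log2 fold change of 0.01 and an adjusted p of 0.984 (edgeR).

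Per kilobase of exon, which allows genes to be compared, the C1q genes and Csf1r stood highest among the 10. The mean over 14 mice was 33.5 ± 5.97 CPM per kilobase for C1qa, 33.3 ± 7.65 for C1qb, 28.2 ± 5.74 for C1qc and 27.1 ± 2.68 for Csf1r. C1qa lay above C1qb in 9 of 14 mice and C1qc above Csf1r in 8 of 14, so that neither pair had a settled order, whereas C1qb lay above C1qc in 13 of 14. P2ry12 (18.7 ± 2.19 CPM per kilobase) and Tyrobp (18.3 ± 2.99) followed, with P2ry12 the higher in 8 of 14 mice. Below them stood Cx3cr1 (14.03 ± 1.19), Tmem119 (9.90 ± 0.874), Trem2 (7.29 ± 1.09) and Aif1 (5.07 ± 0.857). From Tyrobp downward each gene exceeded the next in 14 of 14 mice, as Csf1r exceeded P2ry12.

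**Figure D1:**
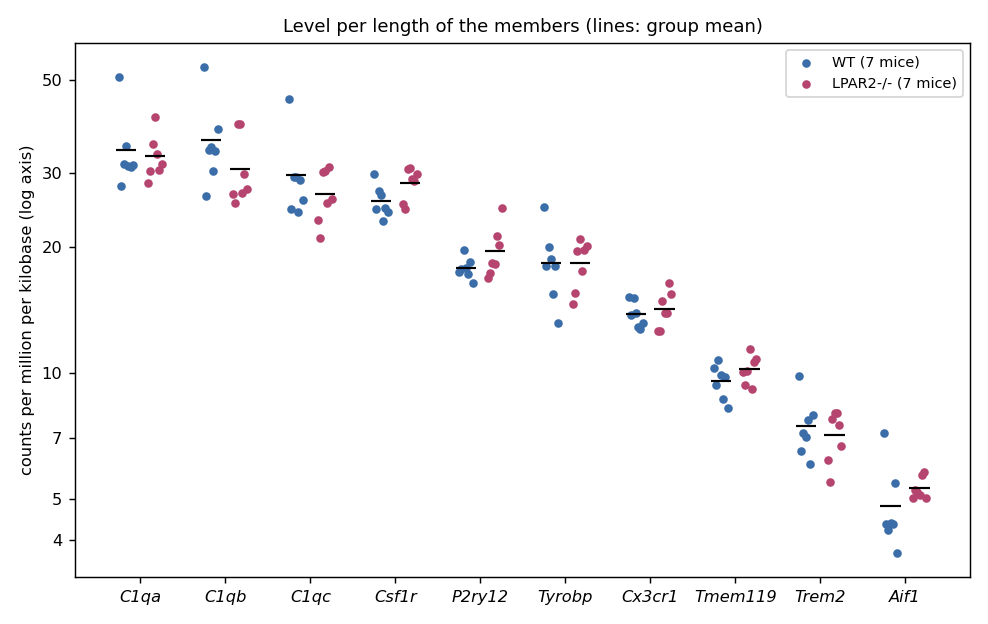
Level of each gene in CPM per kilobase of exon (log axis), ordered by the mean over 14 mice. Each point is a mouse (blue WT, red labelled LPAR2-/-, 7 each) and lines are group means. C1qa, C1qb, C1qc and Csf1r share the top range, and Aif1 is lowest at a mean of 5.07.

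None of the 10 genes passed the test between the genotypes. Across all genes, edgeR called 1009 of 14897 (6.77%) at an adjusted p under 0.05, of which 494 (3.32%) were higher in the group labelled LPAR2-/- and 515 (3.46%) lower. With upper-quartile scaling the split was 616 and 377. DESeq2, which called 1393 of 14319 genes with an adjusted p (9.73%), and limma on the normalized values (5.44% of genes) also called 0 of the 10. In edgeR, 1 of the 10 (Csf1r) had an unadjusted p under 0.05, beside 22.4% of all genes tested. The fitted fold changes were above 0 for 5 genes and below 0 for 5, with a median of 0.02 on the log2 scale beside 0.0029 over all genes tested. The 95% intervals ran from -0.54 to 0.40 on the log2 scale at their widest, so that all 10 lay within a 1.5-fold difference in either direction. The groups of 7 and 7 mice overlapped for all 10 genes, and were separate for 264 of the genes tested (1.77%).

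**Figure D2:**
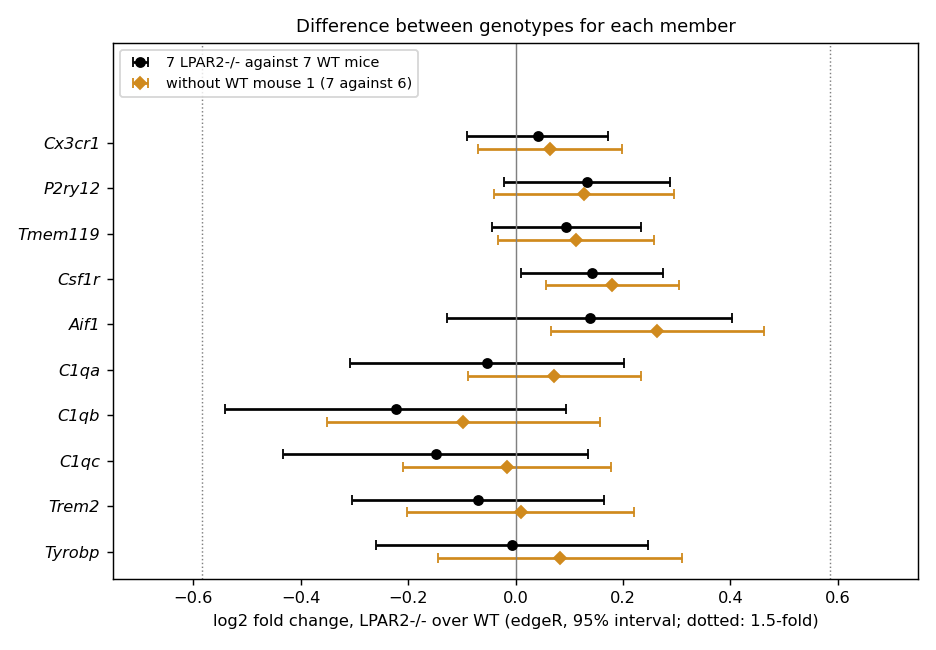
Log2 fold change of each gene, mice labelled LPAR2-/- over WT mice (edgeR), with its 95% interval. Black circles are all 14 mice, orange diamonds leave out WT mouse 1, and dotted lines mark a 1.5-fold difference. All black intervals lie between the dotted lines and 9 of 10 include 0, the exception being Csf1r.

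The surface receptors by which microglia watch the tissue had overlapping levels in the genotypes. Cx3cr1 (chromosome 9, 120048683 to 120068296) ranged from 47.2 CPM through a median of 52.3 to 61.4 CPM in the mice labelled LPAR2-/-, and from 47.8 through 51.8 to 56.9 CPM in WT mice. The ranges overlap, although the mice labelled LPAR2-/- with numbers 6 and 7 lay above all WT mice. The log2 fold change was 0.04 (SE 0.0619, adjusted p = 0.748, edgeR), and from 0.0047 to 0.068 with single mice left out. P2ry12 (chromosome 3, 59216271 to 59262831) ranged from 39.4 through 42.8 to 57.8 CPM in the mice labelled LPAR2-/- and from 38.4 through 41.3 to 45.9 CPM in WT mice. The mice labelled LPAR2-/- with numbers 5, 6 and 7 lay above all WT mice. The log2 fold change was 0.13 (SE 0.0732, adjusted p = 0.300, edgeR), with an interval of -1.50% to 22.1%. With single mice left out it ranged from 0.069, without the mouse labelled LPAR2-/- with number 7, to 0.17. The gene lies within Med12l, which runs on the opposite strand, and reads were counted by strand. Tmem119 (chromosome 5, 113793729 to 113800352), a membrane protein gene used to mark microglia, ranged from 19.1 through 21.1 to 23.7 CPM and in WT mice from 17.2 through 20.3 to 22.4 CPM. Its log2 fold change was 0.09 (SE 0.0658, adjusted p = 0.425, edgeR), and from 0.062 to 0.12 with single mice left out.

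Csf1r, the survival receptor, came nearest to the threshold. Its values were 95.3 CPM at the lowest, 112.2 at the median and 119.2 at the highest in the mice labelled LPAR2-/-, and 89.4, 95.8 and 115.4 CPM in WT mice. Of the 7 mice labelled LPAR2-/-, 6 lay above the WT median, and the highest WT value was that of WT mouse 1. The log2 fold change was 0.14 (SE 0.0627, adjusted p = 0.192, edgeR), which is 1.10-fold with an interval of 1.01 to 1.21. The gene is on chromosome 18 (61105572 to 61131139). Its ligands were likewise not called. Csf1 was at 55.5 ± 9.25 CPM against 51.7 ± 6.27 CPM in WT mice, and Il34 at 36.3 ± 10.9 against 37.0 ± 5.49 CPM.

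Aif1, which encodes the calcium-binding protein IBA1 by which microglia are stained, was the least abundant of the 10 genes (56 to 133 counts per mouse). In the mice labelled LPAR2-/- its values lay close together, from 4.41 through 4.55 to 5.08 CPM. In WT mice they ran from 3.27 through 3.82 to 6.29 CPM, and WT mouse 1 alone set the upper end. All 7 mice labelled LPAR2-/- lay above the WT median. The log2 fold change was 0.14 (SE 0.126, adjusted p = 0.554, edgeR), and without WT mouse 1 it was 0.26 (SE 0.0933, adjusted p = 0.0880, edgeR). The coefficient of variation was 5.93% in the mice labelled LPAR2-/-, 24.1% in WT mice and 12.7% in WT mice without mouse 1.

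Of the C1q genes none was called, and C1qb and C1qc had the lowest fitted values of the 10 genes. C1qa ranged from 30.7 through 34.1 to 44.2 CPM in the mice labelled LPAR2-/- and from 30.1 through 33.8 to 55.1 CPM in WT mice (log2 fold change -0.05, SE 0.120, adjusted p = 0.840, edgeR). The medians of the groups nearly coincide. C1qb ranged from 26.9 through 29.1 to 41.7 CPM and in WT mice from 28.1 through 36.1 to 57.0 CPM (log2 fold change -0.22, SE 0.149, adjusted p = 0.403, edgeR). Mice labelled LPAR2-/- with numbers 3 and 4 stood apart from their group at 41.6 and 41.7 CPM, and 2 of the 7 lay above the WT median. Mouse 3 was also the highest of the 14 for 8 of 8 oligodendrocyte markers (sum 4059 CPM, beside 1007 to 2116 CPM in the other mice), and mouse 4 for 6 of 8 border macrophage markers (sum 75.2 CPM). The part of these cells in the C1q values was not tested. C1qc ranged from 22.1 through 27.4 to 32.7 CPM and in WT mice from 25.6 through 30.4 to 47.5 CPM (log2 fold change -0.15, SE 0.133, adjusted p = 0.548, edgeR). WT mouse 1 was the highest of the 14 mice for all 3 genes. Without it the log2 fold changes were 0.07, -0.10 and -0.02 for C1qa, C1qb and C1qc, so that the sign turned for C1qa.

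The proportions of the C1q chains were close between the genotypes. Of their summed level per kilobase, C1qa made up 36.6% ± 2.38 in the mice labelled LPAR2-/- and 34.3% ± 1.36 in WT mice (SD, n = 7). C1qb made up 33.8% ± 2.12 and 36.0% ± 2.01, and 1 of the 7 mice labelled LPAR2-/- exceeded the WT median. C1qc made up 29.6% ± 2.24 and 29.7% ± 1.53. Exact two-sided permutation tests over 3432 arrangements gave p = 0.0513 for C1qa, 0.0717 for C1qb and 0.939 for C1qc, which adjusted over the 3 shares were 0.108, 0.108 and 0.939. These tests were added after the values had been seen, and the shares depend on each other since they sum to the whole. The sum itself ran from 76.6 to 110.4 CPM per kilobase in the mice labelled LPAR2-/- and from 79.0 to 149.7 in WT mice, with WT mouse 1 at the top and WT mouse 4 next in its group at 98.8.

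Trem2 and its adaptor Tyrobp had nearly the same level in both genotypes. Trem2 (chromosome 17, 48346401 to 48352276) ranged from 6.30 through 8.60 to 9.22 CPM in the mice labelled LPAR2-/- and from 6.95 through 8.23 to 11.3 CPM in WT mice (log2 fold change -0.07, SE 0.111, adjusted p = 0.759, edgeR). Tyrobp (chromosome 7, 30413788 to 30417579) ranged from 8.26 through 11.1 to 11.9 CPM and in WT mice from 7.47 through 10.2 to 14.1 CPM (log2 fold change -0.01, SE 0.120, adjusted p = 0.985, edgeR). WT mouse 1 was again the highest for both genes. The intervals were -19.1% to 12.0% for Trem2 and -16.5% to 18.7% for Tyrobp.

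**Figure D3:**
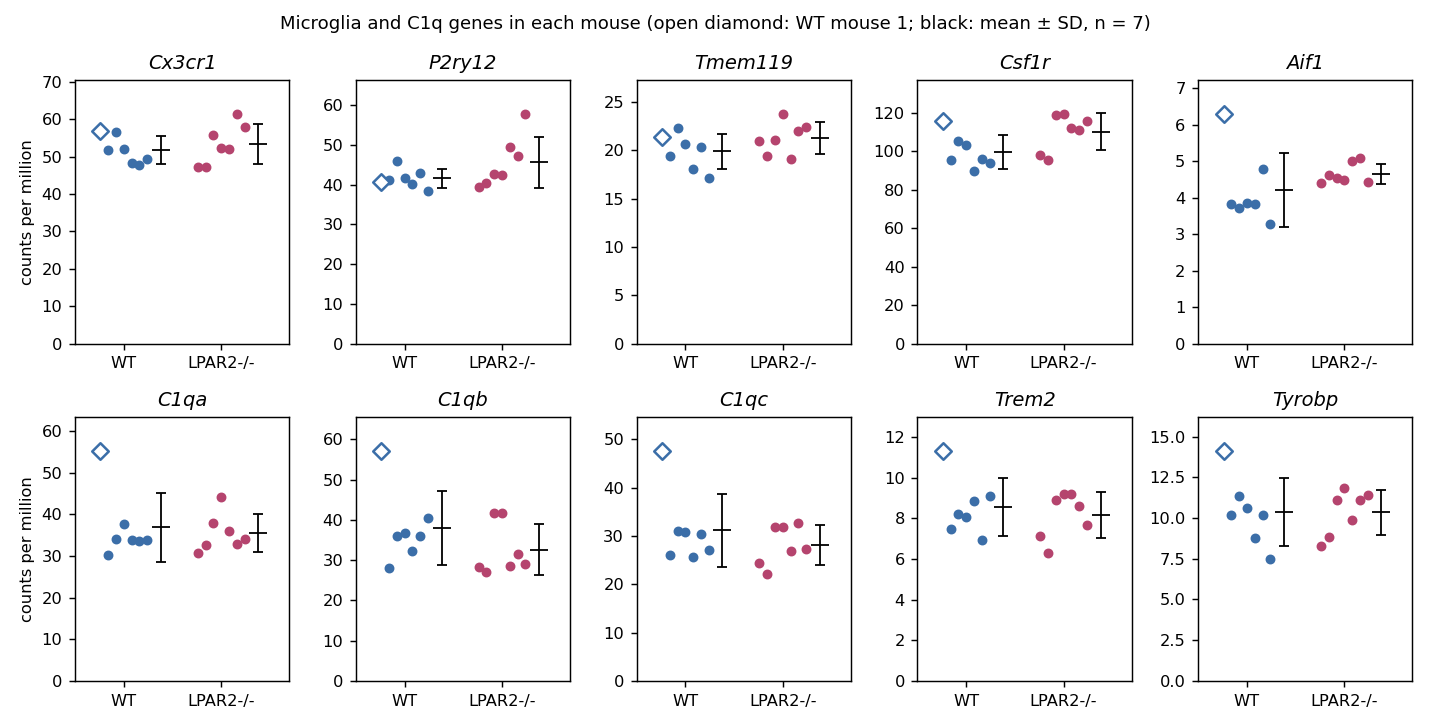
Level in CPM of each gene in each mouse, on axes that start at 0. Blue points are WT mice, red points mice labelled LPAR2-/-, the open diamond is WT mouse 1, and black marks give mean ± SD (n = 7). WT mouse 1 is the highest point for Aif1, C1qa, C1qb, C1qc, Trem2 and Tyrobp and lies within the other WT mice for P2ry12.

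WT mouse 1 stood apart in these genes. It was the highest of the 14 mice for 6 of the 10 and for 17 of the 30 other microglia genes (56.7%), beside 8.70% of all genes tested. Against the median of the other 6 WT mice its level was 1.646-fold for Aif1, 1.63-fold for C1qa, 1.581-fold for C1qb and 1.65-fold for C1qc. Trem2 was at 1.39-fold, Tyrobp at 1.38-fold and Csf1r at 1.21-fold. The other 3 of the 10 were nearer to the median, with Cx3cr1 at 1.124-fold, Tmem119 at 1.07-fold and P2ry12 at 0.984-fold. Among the other microglia genes the ratio was 2.65 for Ptprc (the leukocyte surface phosphatase CD45), 2.08 for Ly86, 1.85 for Spi1 and 1.76 for the protease gene Ctss, but 0.664 for Tgfbr1, a receptor of the factor that keeps microglia in their resting state. The median ratio was 1.39 for the 10 genes, 1.35 for the 30 other microglia genes and 1.005 for all genes tested. Its summed markers of border macrophages (38.5 CPM) and of meningeal fibroblasts (341.8 CPM) lay within the range of the other WT mice, which was 21.7 to 52.7 and 132.9 to 1126 CPM. The monocyte marker Ccr2, at 1.37 CPM, was the highest of the 14 mice. The sum of the monocyte, neutrophil and lymphocyte markers (19.7 CPM) lay within the other WT mice (17.4 to 21.3 CPM). Vcan made up most of that sum, so that it says little about the rarer markers such as Ccr2. The part of blood-borne cells in these values was not tested.

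Without this mouse, edgeR called 1385 of 14961 genes (9.26%) and again 0 of the 10. Of the 10, 2 had an unadjusted p under 0.05, beside 25.1% of all genes, Csf1r (log2 fold change 0.18, adjusted p = 0.0651) and Aif1 (adjusted p = 0.0880, edgeR). Over the 22 alternative analyses their adjusted p ranged from 0.0651 to 0.336 and from 0.0880 to 0.724. The fitted fold changes were then above 0 for 8 genes and below 0 for C1qb and C1qc, with a median of 0.08, and C1qa, Trem2 and Tyrobp had changed sign. Within WT mice the median coefficient of variation of the 10 genes was 18.3% with mouse 1 and 9.22% without it. In the mice labelled LPAR2-/- it was 12.98%. Over all genes tested the median was 8.74% in WT mice, mouse 1 included, and 9.54% in the mice labelled LPAR2-/-.

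The 10 genes tended to vary together from mouse to mouse. With the genotype means removed, the median Pearson correlation of log2 CPM over the 45 pairs was 0.60 across 14 mice (from -0.17 to 0.88), and 26 pairs exceeded 0.5. The C1q pairs lay between 0.84 and 0.88, Csf1r with Tyrobp at 0.88 and Csf1r with C1qc at 0.87. P2ry12 was at -0.04 with C1qa, -0.17 with C1qb and 0.16 with C1qc, at 0.42 with Csf1r, 0.44 with Tyrobp and 0.60 with Cx3cr1. Without WT mouse 1 the median was 0.46 and the C1q pairs lay between 0.61 and 0.78, while Aif1 with Csf1r went from 0.45 to 0.04 and Aif1 was at -0.06, -0.18 and 0.26 with C1qa, C1qb and C1qc. All points share the depth and the scaling of their library, and the values are descriptions over 14 or 13 mice.

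**Figure D4:**
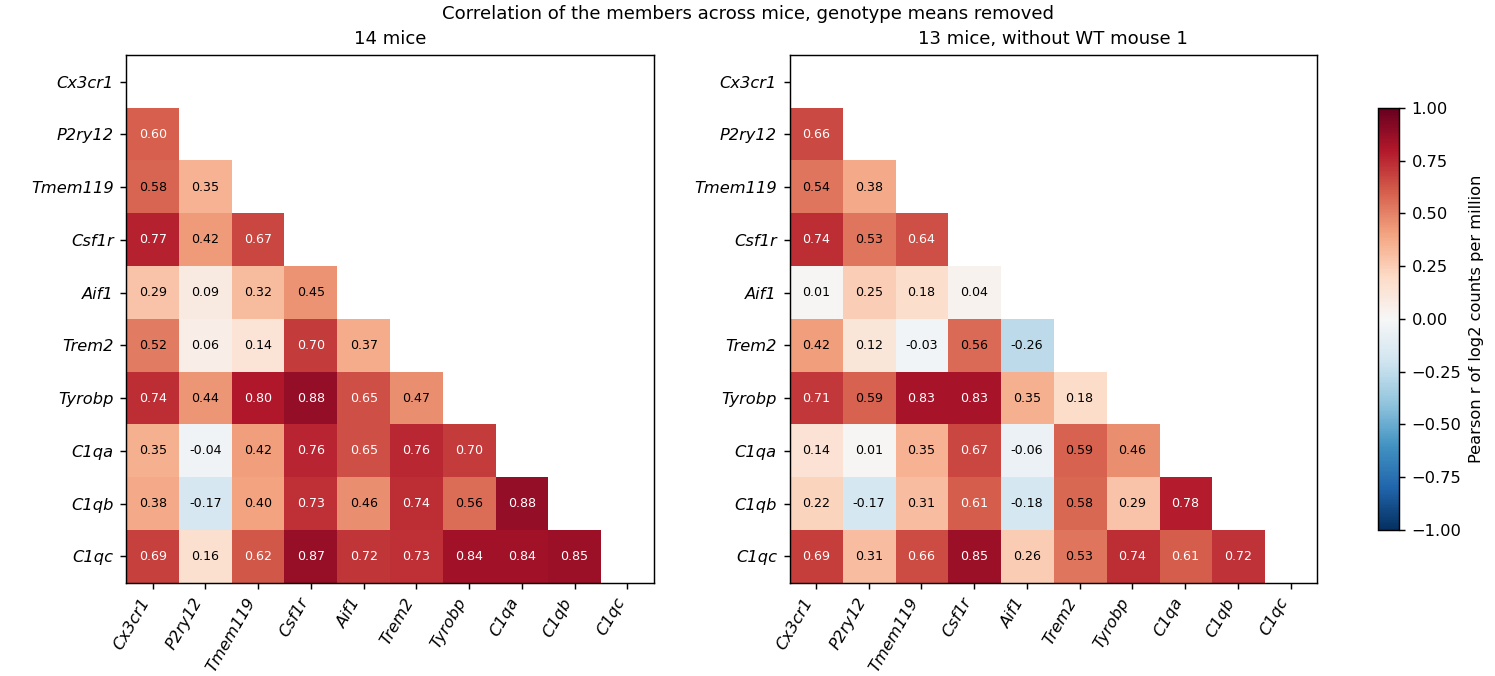
Pearson correlation of log2 CPM between pairs of the 10 genes with genotype means removed, across 14 mice on the left and across 13 mice without WT mouse 1 on the right. Red is positive and blue negative. The C1q pairs (0.84 to 0.88 on the left) weaken on the right, and P2ry12 stays near 0 with C1qa in both.

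Among the other 14887 genes, the 10 most like the mean of the microglia and C1q genes across 14 mice included Laptm5 (r = 0.965), Ctss (0.925), Siglech (0.914), Ly86 (0.880), Ptprc (0.878), Cd68 (0.866), Cd53 (0.863), Lgmn (0.856) and Itgb2 (0.854). Of the 10 most like, 8 are among the 30 other microglia genes, and 3 of the 10 most like without WT mouse 1. Over those 30 the median r was 0.65, beside 0.01 over all genes. Without WT mouse 1 the median was 0.55, again beside 0.01, and 2 genes, Laptm5 (0.928) among them, were again among the 10 most like.

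The wider set of microglia genes was not called either. Of the 30, 0 passed in edgeR or in DESeq2 (beside 6.77% and 9.73% of all genes), and 3 had an unadjusted p under 0.05 in edgeR (beside 22.4%). They included Fcrls (26.5 ± 3.96 CPM in the mice labelled LPAR2-/- against 21.3 ± 4.20, log2 fold change 0.31, adjusted p = 0.149) and P2ry13 (0.18, adjusted p = 0.210). Siglech, a microglial receptor that signals through TYROBP, was at 17.3 ± 1.61 against 15.4 ± 2.02 CPM and passed only without WT mouse 1 (log2 fold change 0.23, adjusted p = 0.0498, edgeR, beside 0.0498 to 0.366 over the alternatives). The integrin gene Itgam, part of complement receptor 3, was at 31.0 ± 4.45 against 29.8 ± 7.22 CPM.

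Of the complement pathway beyond C1q, 1 of 12 tested genes was called (8.33%, close to the 6.77% of all genes), 0 higher and 1 lower. This was Cfp, the gene of properdin, which stabilises the alternative pathway. Its values ran from 17.2 through 22.5 to 24.1 CPM in the mice labelled LPAR2-/- and from 20.01 through 30.1 to 34.3 CPM in WT mice, and the groups overlap. The log2 fold change was -0.42 (SE 0.121, adjusted p = 0.0474, edgeR), and the call was lost in 17 of the 22 alternative analyses. The genes of the C1 proteases, which C1q activates, had log2 fold changes of 0.01 (C1ra, adjusted p = 0.993) and 0.05 (C1s1, adjusted p = 0.948, edgeR). Without WT mouse 1 these were 0.41 (adjusted p = 0.349) and 0.50 (adjusted p = 0.130, edgeR). C2 and C4b, whose products these proteases cleave, had fitted values of 0.71 (adjusted p = 0.0634) and 0.44 (adjusted p = 0.0954, edgeR) and were called by DESeq2. C4b was at 28.9 ± 6.95 CPM against 21.4 ± 3.93, and its near-identical copy C4a makes the count of C4b uncertain, since reads matching several places were left out. C3, the central component, was at 0.689 ± 0.638 against 0.597 ± 0.489 CPM. Of the complement receptors and regulators, 0 of 19 were called by edgeR (6.77% of all genes), where 3 had an unadjusted p under 0.05 (22.4% of all genes), and DESeq2 called Serping1, the inhibitor of the C1 proteases. Of the 19, 12 were fitted above 0 and 7 below. The receptor gene C3ar1 was fitted at 0.33 (adjusted p = 0.361, edgeR). The receptor genes C5ar2 and C5ar1 went the other way, at -0.60 (adjusted p = 0.116) and -0.51 (adjusted p = 0.416, edgeR).

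Among genes of Trem2 and Tyrobp signalling, 0 of 18 tested were called by edgeR or DESeq2, beside 6.77% and 9.73% of all genes. Of the 18, 4 had an unadjusted p under 0.05 in edgeR, a share close to the 22.4% of all genes. Syk, the kinase that docks to TYROBP, was at 4.45 ± 0.569 CPM in the mice labelled LPAR2-/- and 5.40 ± 1.13 CPM in WT mice (log2 fold change -0.28, adjusted p = 0.217, edgeR). The phospholipase gene Plcg2 had 0.14 (adjusted p = 0.139). Clec5a, another receptor that pairs with TYROBP, had -0.49 (adjusted p = 0.0634, edgeR). Without WT mouse 1, edgeR called 2 genes of this list, beside 9.26% of all genes, and they went in opposite directions. Siglech, already named among the other microglia genes, had a log2 fold change of 0.23. Adam10, the gene of a protease that sheds TREM2, had -0.15.

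The genes of disease-associated microglia, a state that depends on TREM2, gave 2 calls of 21 tested (9.52%, beside 6.77% of all genes), both higher in the mice labelled LPAR2-/-. Lpl, the gene of lipoprotein lipase, ran from 84.0 through 122.7 to 151.2 CPM and in WT mice from 39.6 through 49.3 to 60.02 CPM, and the groups do not overlap. Its log2 fold change was 1.25 (SE 0.132, adjusted p = 8.56e-05, edgeR). Lpl lies on chromosome 8, as does Lpar2, and it is also expressed by neurons. H2-D1, a class I histocompatibility gene on chromosome 17, had 0.51 (SE 0.139, adjusted p = 0.0375, edgeR), a call lost in 10 of the 22 alternatives. Cst7, Clec7a and Itgax, which define this state, were too low to be tested, at a median of 0.129, 0.512 and 0.316 CPM in the mice labelled LPAR2-/-. Apoe, which astrocytes express strongly, was at 1144 ± 114.5 against 1120 ± 91.1 CPM. Gpnmb had -0.76 (adjusted p = 0.0768, edgeR) and was called by DESeq2.

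Of the ligands and partners through which other cells act on microglia, 0 of 12 tested were called by edgeR or DESeq2, and 1 (Sirpa) had an unadjusted p under 0.05, beside 6.77% of all genes called by edgeR and 22.4% with such a p. Cx3cl1, the neuronal ligand of CX3CR1, was at 611.8 ± 67.6 CPM in the mice labelled LPAR2-/- and 661.9 ± 28.2 CPM in WT mice (log2 fold change -0.11, adjusted p = 0.285, edgeR). Tgfb1 had 0.18 (adjusted p = 0.522, edgeR).

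**Figure D5:**
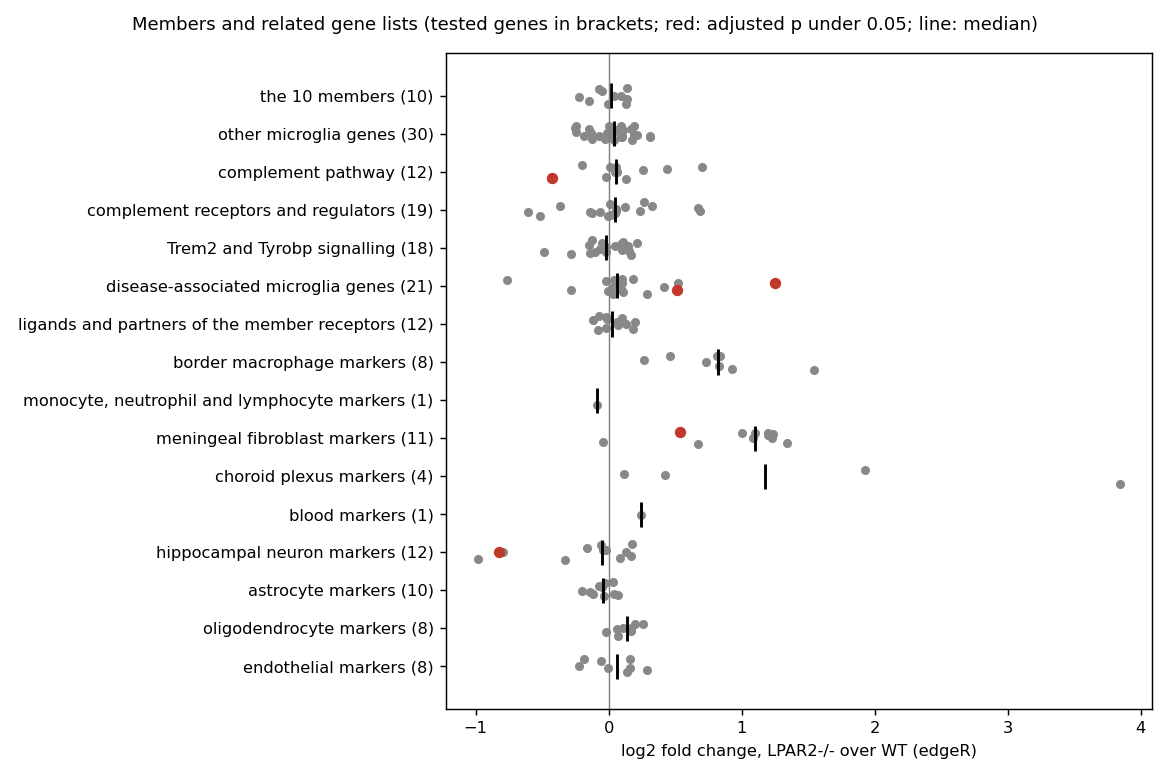
Log2 fold change (edgeR, mice labelled LPAR2-/- over WT mice) of each tested gene of the 10 and of the related lists. Grey points did not pass, red points had an adjusted p under 0.05, black lines are medians, and the number tested is in brackets. The 10 genes lie between -0.22 and 0.14, while border macrophage and meningeal fibroblast markers have medians of 0.82 and 1.10.

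Macrophages at the borders of the brain also express several of the 10 genes, among them Csf1r, Aif1 and the C1q genes. Of their 8 tested markers, 0 were called by edgeR (6.77% of all genes), 3 had an unadjusted p under 0.05 (Mrc1, Cbr2 and Siglec1, beside 22.4% of all genes), and all 8 were fitted above 0 with a median of 0.82. Mrc1, the mannose receptor gene, ran from 2.95 through 4.36 to 10.4 CPM in the mice labelled LPAR2-/- and from 1.17 through 2.42 to 5.45 CPM in WT mice (log2 fold change 0.93, adjusted p = 0.123, edgeR) and was called by DESeq2. Cd163 had 0.46 (adjusted p = 0.259), and Pf4 stayed at or below 1.47 CPM. The summed level of the 12 markers was 33.3 to 75.2 CPM in the mice labelled LPAR2-/- and 21.7 to 52.7 CPM in WT mice. None of the defining markers was at 0 in a whole group. Meningeal fibroblast markers were also mostly fitted above 0 (10 of 11). Of these, 1 was called (Lum, a matrix proteoglycan gene, log2 fold change 0.54, adjusted p = 0.0132), 7 had an unadjusted p under 0.05 in edgeR (beside 22.4% of all genes), the median was 1.10, and Col1a1 had 1.09 (adjusted p = 0.112, edgeR). Their sum was 245.6 to 1663 CPM in the mice labelled LPAR2-/- and 132.9 to 1126 CPM in WT mice. The part of these cells in the values of the 10 genes was not tested.

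Other cell types gave few calls. Against the same shares of all genes (6.77% called by edgeR, 22.4% with an unadjusted p under 0.05), choroid plexus markers had 0 calls of 4 in edgeR, where 2 had an unadjusted p under 0.05, and 1 (Kcnj13) in DESeq2, and the mouse labelled LPAR2-/- with number 2 stood out with a sum of 293.3 CPM beside a group median of 36.0 CPM. Its Ttr level was 242.1 CPM beside a group median of 2.37 CPM. This mouse had the lowest value of all 14 for 4 of the 10 microglia and C1q genes, beside 6.01% of all genes. WT mouse 7, whose choroid plexus sum was 35.4 CPM, was also lowest for 4 of the 10, beside 7.34% of all genes. Of 12 hippocampal neuron markers, 1 was called by edgeR, and Prox1 of the dentate granule cells was at 45.4 ± 6.68 against 41.3 ± 4.19 CPM. Of the 10 astrocyte, 8 oligodendrocyte and 8 endothelial markers, 0 were called by edgeR, with 0, 0 and 1 at an unadjusted p under 0.05, and DESeq2 called the endothelial Slco1a4.

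Several neighbours of the C1q genes were called, although none of the 3 was. Within 1 Mb, 6 of 24 tested genes passed (25%, beside 6.77% of all genes). Zfp46 (log2 fold change 0.44), Epha8 (0.68) and Alpl (0.47) were higher in the mice labelled LPAR2-/-, and Luzp1 (-0.17), Zbtb40 (-0.50) and Rap1gap (-0.14) were lower. Near Aif1, within the histocompatibility region of chromosome 17, 6 of 79 were called (7.59%). They included H2-Ab1, a class II gene of antigen-presenting cells (2.26, SE 0.418, adjusted p = 0.00558, edgeR), and Lst1, a myeloid gene (0.72, SE 0.185, adjusted p = 0.0280, edgeR). Around Cx3cr1 3 of 24 were called, around Tmem119 2 of 29 and around Tyrobp 2 of 59, and 0 around P2ry12 (11 tested), Csf1r (28) and Trem2 (18). The neighbours were named after their values had been seen. Genotype and colony background cannot be told apart in these regions.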

How the data were processed

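Hippocampal RNA of 14 mice was sequenced. Trimming (cutadapt 1.18), alignment to mm10 (STAR) and strand-specific counting on exons (featureCounts 1.6.3) were done by the authors. These deposited counts were the main data. A deposited table of other, normalized values (counts over DESeq2 1.22.2 size factors and gene length, whose lost decimal points were restored) served as an alternative, and its log2 columns were not used. Of 24421 genes, 14897 passed filterByExpr and were tested with the robust quasi-likelihood test of edgeR 4.0.16 (R 4.3.3) after TMM scaling, 7 against 7 mice without covariates, adjusted over all genes tested. CPM are TMM-scaled, and log2 CPM use a prior count of 2. Alternatives were DESeq2 1.42.0, its size factors, the upper quartile, no filter, at least 10 counts in every library, limma 3.58.1 on the normalized values with a pseudocount of 1 or none, the mouse number as a block and each mouse left out. Analyses without WT mouse 1 of correlations and variation were added after the data had been seen. Procedures were tested on simulated data.

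The 10 genes and the 15 further lists were chosen with earlier results of these data known. Named were the 10 genes, list members past the threshold (at most 4), a set of defining genes per list, and the 10 genes most like the mean of the 10. Lowest chi-square per degree of freedom between libraries of a genotype was 3.35 over 42 pairs, so none was a copy. Replicates are separate mice by the labels. A count of 0 allows up to 3 counts, and this covers counting error only. Promoter windows came from RefSeq (GRCm38.p6), and proteins were not used here. Of the normalized values of 1 or more, 99.97% lay within 1% of counts per length. Some of the genes this rule names are not reported here.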

Additional observations from a re-analysis of the deposited data

Results flagged for a closer look

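WT mouse 1 lay far above the other 6 WT mice for the C1q genes, by Dixon's criterion for 1 distant sample among 7. Its level was 55.1 CPM for C1qa, 57.0 CPM for C1qb and 47.5 CPM for C1qc. The gap to the next WT mouse took 0.697, 0.570 and 0.753 of the whole WT range. The same mouse was distant in this way for 10 of the 30 other microglia genes and for 1.26% of all genes tested, and the mouse labelled LPAR2-/- with number 3 for 1.32% of all genes but 0 of the 30. Chance alone marks about 1 in 20 groups, and the C1q genes vary together, so that the 3 values are not independent. The source of the difference was not tested.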

How the results depend on the processing

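Of the 10 genes, 0 were called in any of the 22 alternative analyses (220 fits with edgeR, DESeq2 or limma, lowest adjusted p 0.0651), and their direction was kept except as follows. Tyrobp, at -0.01 on the log2 scale, turned to 0.013 with the upper quartile, 0.0062 and 0.0072 with limma on the normalized values with and without a pseudocount, and 0.0025 with a replicate block on the mouse number. With single mice left out it ranged from -0.071 to 0.083, C1qa from -0.11 to 0.072 and Trem2 from -0.11 to 0.0091. The upper end of each was the fit without WT mouse 1. Tyrobp also lay above 0 without WT mouse 3 (0.015). Without the mice labelled LPAR2-/- with numbers 1, 2 and 5 it was 0.041, 0.0285 and 0.0064. Among other named genes, C3 ranged from -0.20 to 0.70, Il34 from -0.14 to 0.067 and Apoe from -0.013 to 0.057. The cause was not tested.

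Over all genes, 1009 calls became 586 with this replicate block. Mice of the same number correlated between -0.334 and 0.311, with 3 of 7 pairs above 0.1. Of 14 libraries, 5 were closest to their own number. Whether the numbers pair the mice was not tested further. With single mice left out the calls ranged from 567 (without WT mouse 2) to 1385 (without WT mouse 1), and they were 611 without the mouse labelled LPAR2-/- with number 1 and 669, 596 and 654 without WT mice 4, 5 and 6.

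Of the complement pathway genes, DESeq2 called 3, and 0 were called with the upper quartile, with no filter, with limma with or without a pseudocount and with the block. With single mice left out the list gave 0 or 1 calls, and Cfp passed only without WT mouse 1 or WT mouse 7. DESeq2 called 1 complement regulator, 1 border macrophage, 1 choroid plexus and 1 endothelial marker. The disease-associated genes had 1 call in place of 2 with limma and a pseudocount, and Lum was lost with the block (0 calls). With single mice left out, the calls ranged from 0 to 1 for the other microglia genes, complement receptors and regulators, choroid plexus and endothelial markers, from 0 to 2 for Trem2 and Tyrobp signalling, from 1 to 3 for disease-associated genes and from 1 to 6 for meningeal markers, the 6 being without WT mouse 4. H2-D1 was lost without the mice labelled LPAR2-/- with numbers 1, 2, 4 and 5 and without WT mice 2, 4, 5, 6 and 7. The standard errors of the 10 genes ran from 0.0619 (Cx3cr1) to 0.149 (C1qb) on the log2 scale, beside a median of 0.0714 over all genes.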
